A study of Quercus robur with 165 samples.

Results

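The 100 genes described here were those of *Q. robur* roots with the lowest expression in thick roots relative to normal roots. They were chosen from measured values. In Dataset 1, the group mean of TPM (an expression level scaled for gene length and for the library) was compared between thick and normal roots in 5 pairs of groups, as log2 of the ratio after adding 0.5 TPM to both levels. Of the 35397 genes in the files, 19615 had a mean of at least 2 TPM over these 10 groups, and 1915 of those were lower in all 5 pairs. The score of a gene was its smallest fall in any of the 5 pairs, and the 100 genes with the strongest scores were taken. The 11 genes that the study named for RT-qPCR were to be left out, and none of them ranked among the first 100.

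Roots of pedunculate oak seedlings were sampled as the meristematic zone of the taproot (K), the elongation zone of the taproot (SW) and lateral roots (KB), and were classed at harvest as short (kr), medium (sr) or long (dl). They were also classed as normal (NN), dying (NT), thick and still active (TN) or thick and dying (TT), so that thickness and vitality were a judgement of appearance and not a treatment. The study describes this classing for taproots, so the code of a lateral root group may describe the taproot of the seedling. Lateral roots called thick or dying below are named by the code of their group, and whether they were themselves thickened or dying is not known. Seedlings grew in containers with air pruning (kon), in clear-walled rhizotrons (rh), or, in Dataset 2, in a container and from the next spring in a rhizotron until a harvest 8 weeks after transplanting (krh). Dataset 1 held 75 libraries in 25 groups of 3 from taproot meristems and lateral roots at 7 weeks (prefix 1) or 8 weeks after spring sowing (prefix 2) or 8 weeks after early-summer sowing (prefix 3), and Dataset 2 held 90 libraries in 30 groups of 3, with no age in the labels of its groups. The 5 pairs of the rule were medium container taproot meristems (2K_sr_kon), long container and long rhizotron taproot meristems (3K_dl_kon and 3K_dl_rh), and lateral roots of medium seedlings from containers (2KB_sr_kon) and rhizotrons (2KB_sr_rh).

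A taproot grows from the meristem at its tip, where cells divide, and from the elongation zone behind it, where they expand, while lateral roots form later from the inner tissue of an older root. In oak nurseries the tip of the taproot dies where it meets air at the bottom of a container, which is called air pruning, and some roots stop elongating and thicken before they reach it. In plants, programmes of cell division, cell wall synthesis, hormone transport and defence are known to differ between growing and arrested root tips. The files identify the 100 genes only by the number of the transcript assembly (MSTRG), which is paired there with no gene name, position or sequence. Their roles are therefore not given, and they are ordered below by how strongly they were lowered and by how abundant they were.

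The libraries held 20037169 to 24793325 expected counts in Dataset 1 and 22882800 to 33341476 in Dataset 2. The study calls the 3 libraries of a group biological replicates. However, 24 of the 75 library pairs within groups of Dataset 1 and 55 of the 90 in Dataset 2 were near-identical, with a coefficient of variation beyond counting noise under 0.05, and p-values measure only the spread between these libraries, which may be partly technical. Summing near-identical libraries of the same group left 55 units in Dataset 1 and 49 in Dataset 2. Whether these units are independent plants was not tested. The counts obtained after this summing are given beside each result that it moved by more than 1.5 times. Percentages of all genes belong to the edgeR fit on all libraries, unless another setting is named with them. For single comparisons no such share is given after summing, by DESeq2 or at an unadjusted p. Those counts therefore cannot be set against all genes. The first library stood apart in several groups. For example, the median level of the 100 genes was 11.8 TPM in the first library of 2K_sr_NN_kon and 22.4 and 23.1 TPM in the others, and it was 1.79 TPM in the first library of SW_sr_NN_kon and 9.28 and 10.8 TPM in the others. Title and description conflict for 1K_dl_NN_kon and K_dl_NT_krh, which entered no comparison unless named. Libraries 2 and 3 of 2K_dl_NT_kon, labelled dying and container, were near-identical to libraries of 2K_dl_NN_rh, labelled normal and rhizotron, and the main counts of tests that rest on that group are given with and without it. PIN2, an auxin efflux carrier of root tips, ranged from 29.0 to 64.5 TPM in the 19 groups of normal taproot meristems, from 7.46 to 31.0 TPM in the 12 groups of normal lateral roots and from 0.13 to 1.94 TPM in the 5 groups of normal elongation zones.

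In the 5 pairs that chose them, the genes were lower in thick roots by construction, and these values are a description without a test. The median log2 ratio of the 100 genes was −1.72 in 2K_sr_kon, −1.53 in 3K_dl_kon, −1.99 in 3K_dl_rh, −1.07 in 2KB_sr_kon and −1.25 in 2KB_sr_rh, while the median of the 19615 candidates was 0.07, 0.17, −0.12, 0.06 and −0.70. Taproots thus carried the larger falls, and the container lateral roots set the score of 49 of the 100 genes. The summed level of the genes was 3648 TPM in thick against 14364 TPM in normal roots of 2K_sr_kon, 2660 against 7663 TPM in 3K_dl_kon, and 2325 against 9122 TPM in 3K_dl_rh. In lateral roots it was 4563 against 9004 TPM in containers and 3083 against 7004 TPM in rhizotrons. The log2 ratio was −1 or lower, a level at least halved, for 83 of the genes in 2K_sr_kon (5.81% of all candidates), 78 in 3K_dl_kon (5.4%), 92 in 3K_dl_rh (9.59%), 55 in 2KB_sr_kon (3.9%) and 71 in 2KB_sr_rh (26.4%), and for 25 genes in every pair, which are all the candidates with such a ratio because the score is the smallest fall. The libraries of thick and normal roots did not overlap for 80 genes in 2K_sr_kon (23.7% of all candidates), 98 in 3K_dl_kon (21.2%), 95 in 3K_dl_rh (39.8%), 83 in 2KB_sr_kon (17.7%) and 93 in 2KB_sr_rh (70.2%). No overlap was seen in all 5 pairs together for 66 genes (2.11% of all candidates), and in at least 4 pairs for 89 (8.8%).

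The rhizotron lateral roots differed from the other pairs in composition. In the thick group 2KB_sr_TN_rh, 3 genes held 42.66% of the counts, against 10.31% in the normal group 2KB_sr_NN_rh, and the level of most other genes was lower there on the TPM scale. With TMM factors, which scale each library by the bulk of its genes, the median of all candidates in this pair moved from −0.70 to −0.01, and the median of the 100 genes moved from −1.25 to −0.59. On that scale 99 of the 100 genes stayed below 0 in this pair and MSTRG.21683 came to 0.01. With CPM (counts scaled by library size) and TMM factors in place of TPM, a change of both length and library scaling, 54 of the 100 genes would have been chosen again. In the other 4 pairs all 100 genes were below 0 on both scales.

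At the edge of the rule, the last genes taken were MSTRG.21683, with a score of −0.69, and MSTRG.19148 with −0.69, and the first genes not taken were MSTRG.4232 with −0.69 and MSTRG.4523 with −0.68. The edge therefore separated genes with nearly equal values. Of the genes that the study named, GST, a glutathione S-transferase gene, came nearest, at rank 490, with log2 ratios of −2.20, −0.99, −2.85, −1.02 and −0.29 in the order of pairs given above.

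The 6 genes with the strongest scores were MSTRG.28328 (−1.95), MSTRG.35285 (−1.49), MSTRG.25746 (−1.42), MSTRG.20019 (−1.37), MSTRG.3248 (−1.34) and MSTRG.31019 (−1.30). MSTRG.25746 was measured at 3.40, 2.77 and 3.82 TPM in thick and at 20.1, 25.4 and 23.4 TPM in normal roots of 2K_sr_kon. In 2KB_sr_kon it was measured at 2.83, 2.89 and 2.34 TPM in thick and at 9.57, 7.47 and 6.98 TPM in normal roots. The gene did not overlap between thick and normal libraries in any of the 5 pairs. MSTRG.20019 stood at 5.94, 7.40 and 6.57 TPM in thick and at 114, 209.9 and 211 TPM in normal taproots of 3K_dl_rh. Its lateral roots differed less, with 134.7, 132 and 140.5 TPM in thick and 317, 359 and 378 TPM in normal roots of 2KB_sr_kon. Thus the same gene had a log2 ratio of −4.65 in one pair and of −1.37 in another. MSTRG.31019 stood at 0.07, 0 and 1.87 TPM in thick and at 12.9, 16.5 and 14.7 TPM in normal roots of 2K_sr_kon, without overlap. MSTRG.35285 was a low gene, at most 1.48 TPM in any library of the 5 thick groups and at least 2.15 TPM in any library of the 5 normal groups. MSTRG.3248 was at 0 in all 6 libraries of the thick groups 3K_dl_TN_kon and 3K_dl_TN_rh and at 2.34 to 4.03 TPM in the normal groups paired with them, but in 2K_sr_kon it overlapped, with 0.17, 0.16 and 3.94 TPM in thick and 1.89, 4.96 and 6.26 TPM in normal libraries.

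The list held low and abundant genes. The mean level over the 5 normal groups ranged from 3.19 to 1863 TPM, with a median of 15.1 TPM against 13.7 TPM for all candidates, and 64 of the 100 genes reached 10 TPM and 15 reached 100 TPM. The 6 most abundant genes were MSTRG.10906 (1863 TPM), MSTRG.13000 (1263 TPM), MSTRG.31072 (1102 TPM), MSTRG.14041 (798 TPM), MSTRG.30246 (567 TPM) and MSTRG.4759 (365 TPM). MSTRG.10906 was measured at 470.4, 429.97 and 632 TPM in thick and at 3661, 5250.3 and 5065 TPM in normal roots of 2K_sr_kon. In 3K_dl_rh it was measured at 105, 99.3 and 96.9 TPM in thick and at 1434, 2397 and 2252 TPM in normal roots. In the lateral roots of 2KB_sr_rh the levels were 203, 197 and 237 TPM in thick and 459.9, 375 and 365 TPM in normal libraries. The highest of the thick libraries remained below the lowest of the normal libraries in each of these pairs. MSTRG.14041 was measured at 146, 147 and 152 TPM in thick and at 549.8, 982 and 939.9 TPM in normal roots of 3K_dl_rh. MSTRG.4759 overlapped in that pair, where it stood at 135, 119.7 and 131 TPM in thick and at 114, 328 and 310.4 TPM in normal libraries, its first normal library being the low one.

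**Figure D1:**
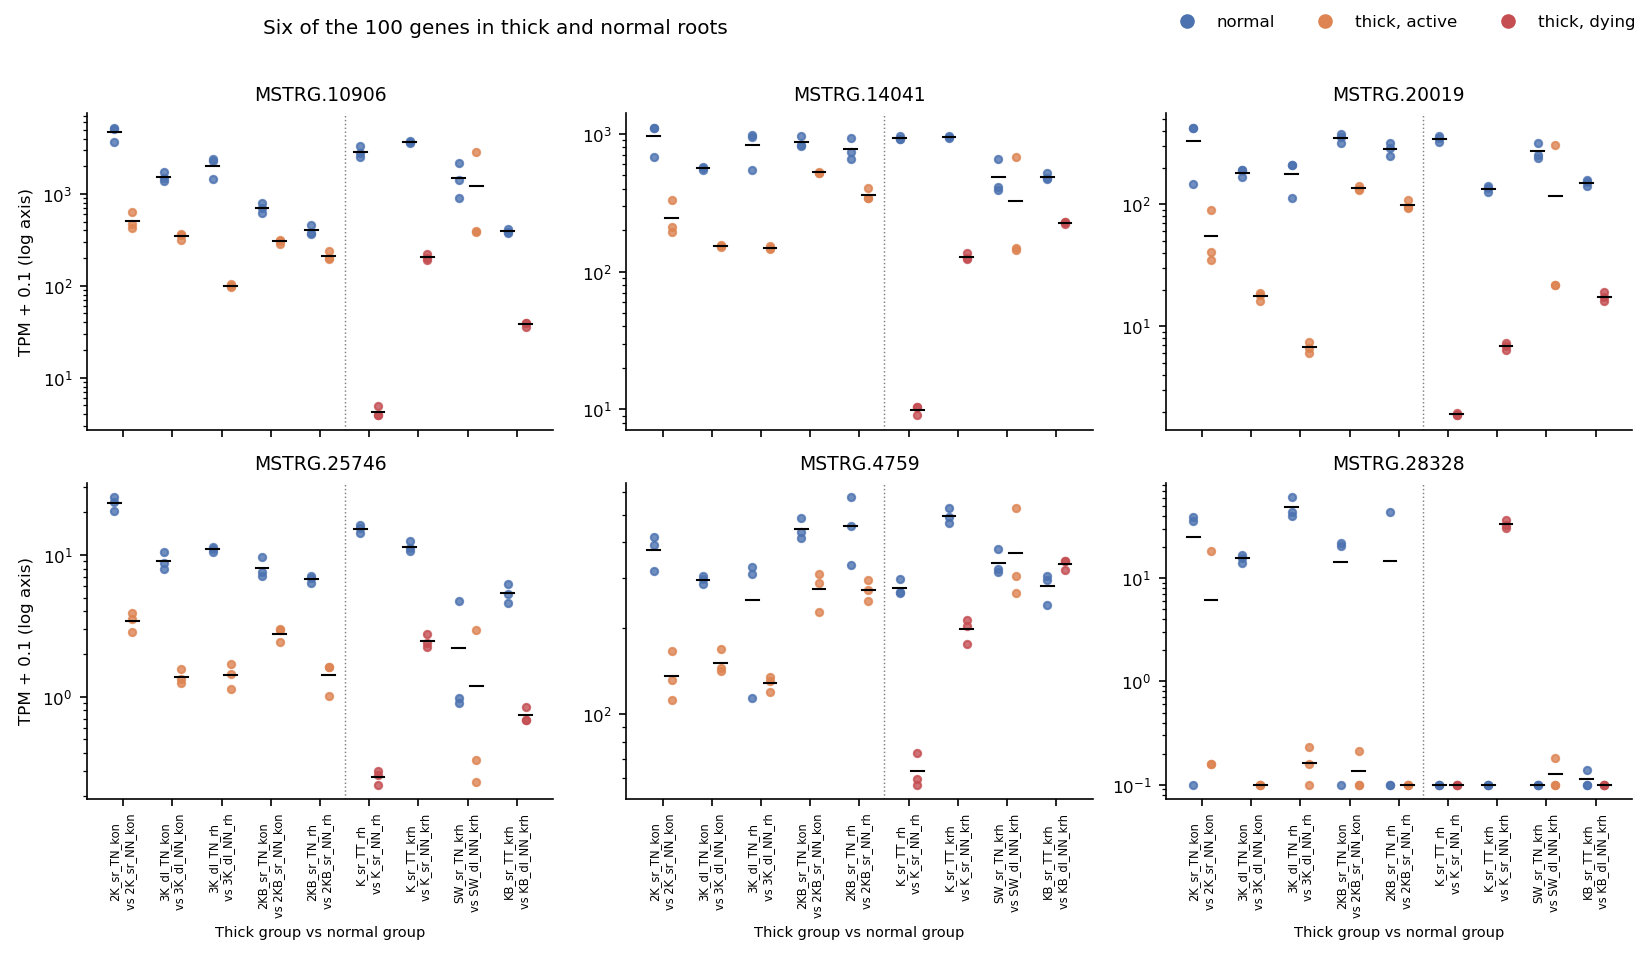
TPM plus 0.1 (log axis) in every library for 6 of the 100 genes, in the 5 pairs of thick and normal groups that chose them and, right of the dotted line, in 4 pairs of Dataset 2. Each point is a library (blue normal, orange thick active, red thick dying) and each line the mean of 3; MSTRG.28328 lies near 0 or above 10 TPM in libraries of the same group, while MSTRG.10906 falls to between 3.79 and 4.87 TPM in thick dying rhizotron meristems.

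Across all 55 groups, the level of the genes was described by morphology and vitality class. The median of the 100 group means ranged from 2.94 to 21.7 TPM in the 36 normal groups (median 11.8 TPM), from 0.23 to 14.4 TPM in the 9 dying groups (2.55 TPM), from 1.72 to 5.25 TPM in the 6 thick active groups (3.41 TPM) and from 0.28 to 3.04 TPM in the 4 thick dying groups (2.16 TPM). The dying groups include K_dl_NT_krh (4.46 TPM), whose labels conflict, and 2K_dl_NT_kon (12.4 TPM), with libraries near-identical to normal rhizotron meristems. The normal groups include 1K_dl_NN_kon (12.1 TPM), whose labels also conflict. The values by class here and the counts of lowest and highest groups below were not repeated without these groups. The 5 thick active groups of Dataset 1 belong to the rule and were low for that reason. The lowest groups were outside the rule. The medium dying rhizotron elongation zones SW_sr_NT_rh had a median of 0.23 TPM, the medium thick dying rhizotron meristems K_sr_TT_rh had 0.28 TPM, and the medium dying rhizotron meristems 2K_sr_NT_rh had 0.96 TPM. In these groups 59, 63 and 50 of the 100 genes lay under 1 TPM. The first 2 of these neighbours in the order cannot be separated by their libraries, which had medians of 0.24, 0.33 and 0.19 TPM in SW_sr_NT_rh and of 0.31, 0.27 and 0.27 TPM in K_sr_TT_rh. The dying group with the highest level was KB_dl_NT_kon, the lateral roots of long dying container seedlings, at 14.4 TPM, within the range of normal roots. In the 45 groups that the rule did not use, the lowest group of a gene was thick dying for 55 of the 100 genes (25.5% of all candidates), dying for 41 (15.2%), normal for 3 (57.1%) and thick active for 1 (2.19%). The highest of these groups was normal for 90 genes (58.7% of all candidates), dying for 7 (18.4%) and thick dying for 3 (20.9%), where 31 of the 45 groups were normal, 9 dying, 4 thick dying and 1 thick active.

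**Figure D2:**
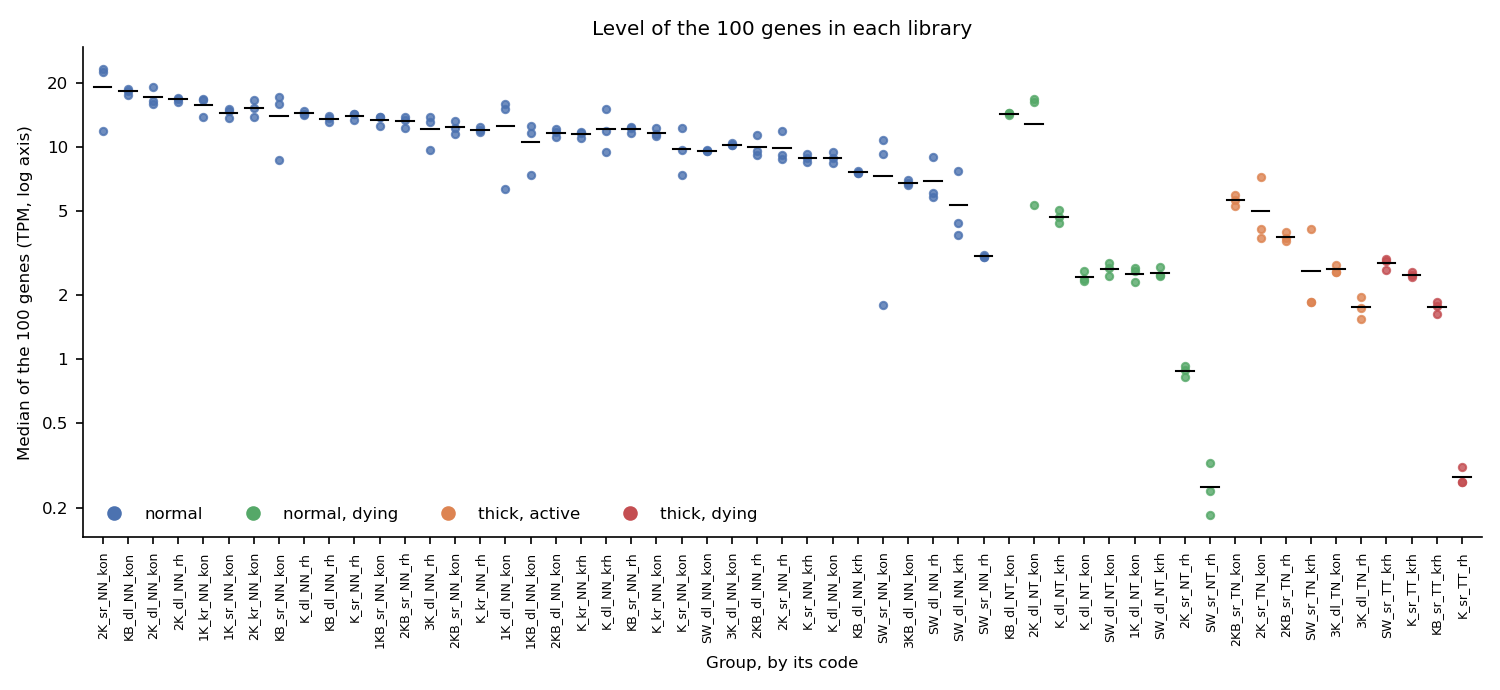
Median TPM of the 100 genes (log axis) in each of the 165 libraries, by group and class; points are libraries and lines are means of the 3 libraries of a group. Normal libraries lie between 1.79 and 23.1 TPM, and the lowest libraries belong to dying or thick dying rhizotron roots.

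**Figure D3:**
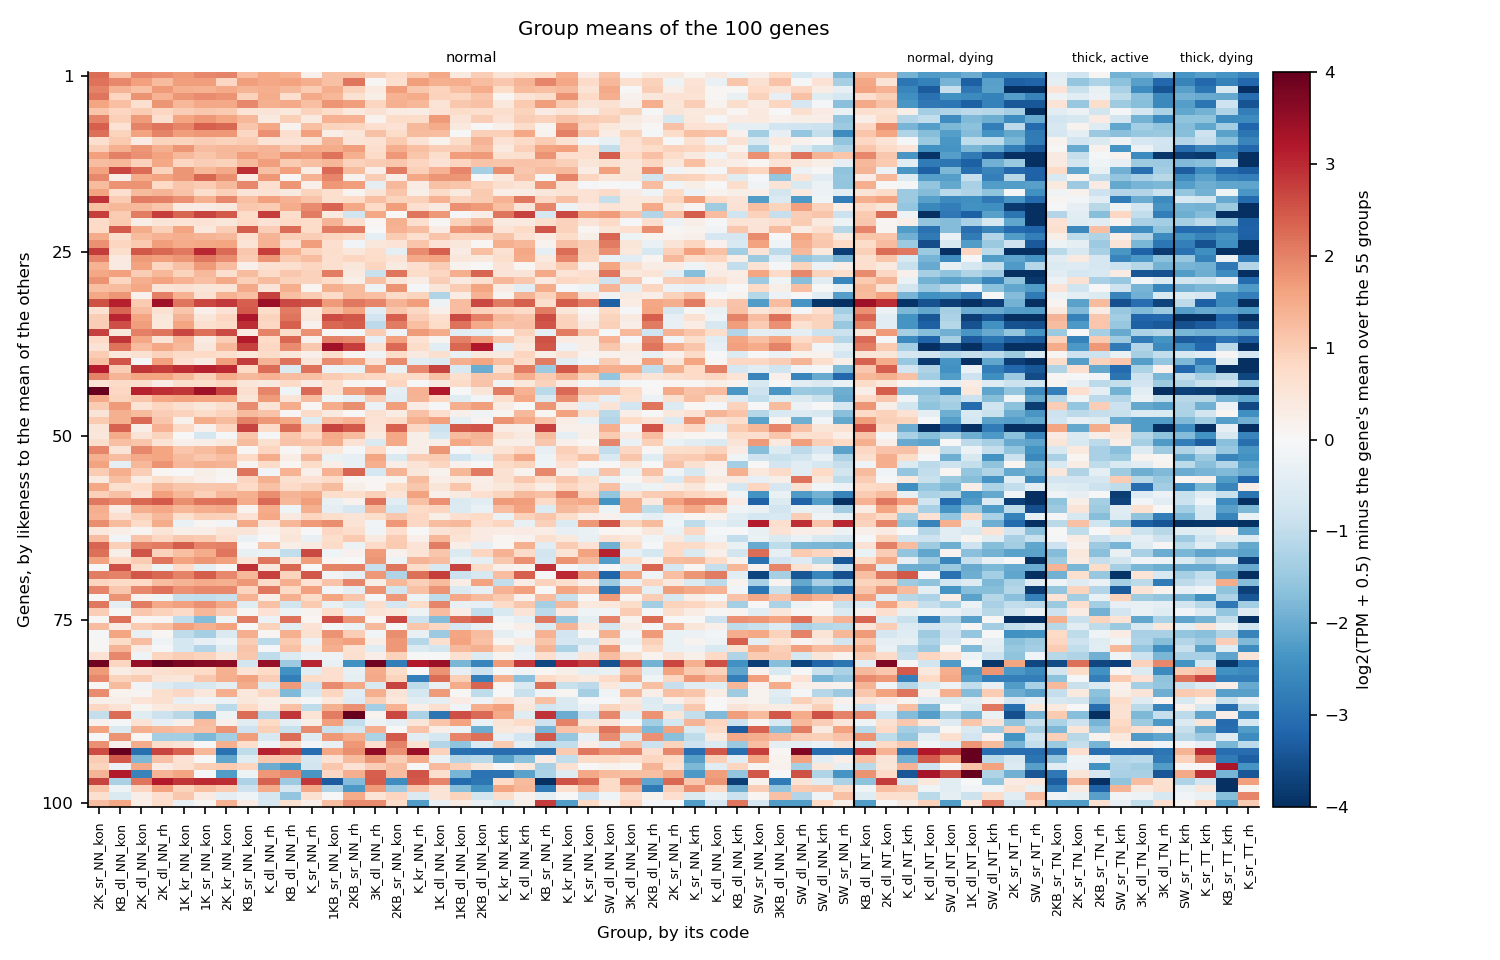
Level of each of the 100 genes in the 55 groups, as log2(TPM + 0.5) minus the mean of the gene over the groups, with genes ordered by their likeness and groups by class. Most genes are high in normal groups and low in thick, dying and thick dying groups, and a few genes at the end of the order do not follow this pattern.

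The likeness among the genes was described over groups. The correlation of a gene with the mean of the other 99 over the 55 groups, on the log2(TPM + 0.5) scale, had a median of 0.78 and exceeded 0.5 in 80 genes. It ranged from 0.05 for MSTRG.33353 and 0.07 for MSTRG.11533 to 0.95 for MSTRG.3130, followed by MSTRG.30018, MSTRG.7585 and MSTRG.5515. The 55 groups include the 10 of the rule. Over the other 45 groups alone the median was 0.80, with 78 genes over 0.5 and a range from −0.09 to 0.95, and both sets of values are a description without a test. The share of all candidates over 0.5 was not counted, so no trait of these genes is read from these counts. The genes were spread over the assembly, and only 3 pairs had numbers at most 5 apart, namely MSTRG.5515 and MSTRG.5519, MSTRG.19648 and MSTRG.19649, and MSTRG.21731 and MSTRG.21732. Levels of these pairs correlated at 0.87, 0.77 and 0.99 over the 55 groups, and it could not be checked whether reads were split between similar copies. The ratio of counts to TPM, which rises with gene length, gave a relative length with a median of 0.69 for 98 of the genes against 0.96 for 19312 candidates, so that the genes were shorter than the typical candidate on this proxy.

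Dataset 2 holds thick roots that the rule did not use, and these served to ask whether the genes were lowered there too. In each test 99 of the 100 genes passed the filter on low counts, and MSTRG.33353 did not. For the thick dying rhizotron meristems (K_sr_TT_rh), the normal meristems of the same length and cultivation (K_sr_NN_rh) were available, but thickness and dying changed together. In the test, 88 of the 99 genes were lower (31.0% of all 28407 genes tested were lower) and 1 was higher (27.0%), by edgeR's quasi-likelihood test with Benjamini-Hochberg adjustment. The median fitted log2 difference of the genes was −5.53, or −4.92 when 15 genes with no count in the thick dying libraries were set to their bound at 3 counts per library, against −0.03 for all genes tested. No overlap was seen for 92 genes (38.0% of all genes). With near-identical libraries summed, 1 thick dying and 2 normal units remained, where the lone unit is assumed to vary like the other groups, as in each such fit below, and 75 genes were lower and none higher. At an unadjusted p under 0.05 none was higher in that fit either, while DESeq2 on all libraries called 89 lower and 1 higher. In bulk tissue, fewer cells of a type and less RNA per cell cannot be told apart.

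MSTRG.10906 was measured at 4.87, 3.85 and 3.79 TPM in the thick dying and at 3284, 2766 and 2550.2 TPM in the normal rhizotron meristems. The groups were far apart, and the fitted difference was −9.36 ± 0.75 (log2, SE, n = 3 per group, edgeR adjusted p = 3.86e-17). MSTRG.20705 had no count in the 3 thick dying libraries and stood at 29.3, 37.2 and 35.8 TPM in the normal libraries, at least 281-fold lower (edgeR adjusted p = 1.81e-22). MSTRG.31028 was likewise at 0 in the thick dying libraries and at 27.0, 24.3 and 23.4 TPM in the normal ones, at least 204-fold lower (edgeR adjusted p = 1.41e-13). Of the other abundant genes, MSTRG.20019 differed by −7.53, MSTRG.14041 by −6.52, MSTRG.31072 by −3.84, MSTRG.13000 by −3.10, MSTRG.4759 by −2.42 and MSTRG.30246 by −1.42, all lower on the log2 scale. The single gene that rose, MSTRG.11533, was measured at 14.5, 16.9 and 16.8 TPM in the thick dying and at 5.55, 6.81 and 5.67 TPM in the normal libraries (1.52 ± 0.36, edgeR adjusted p = 2.37e-04). Its groups did not overlap, but after summing near-identical libraries the adjusted p was 0.178. PIN2 stood at 0.09 TPM in these thick dying meristems against 35.4 TPM in the normal ones, and GST at 57.8 against 517.8 TPM. The reference gene UBQ stood at 109 against 172 TPM, and the part of any of these in the result was not tested.

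In seedlings transplanted from containers to rhizotrons, the thick dying meristems (K_sr_TT_krh) were compared with normal meristems of the same length (K_sr_NN_krh). Here 78 of the 99 genes were lower (26.3% of all genes) and 4 were higher (26.1%), with a median difference of −2.04 against 0.00 for all genes tested, and 85 genes did not overlap (43.0%). With near-identical libraries summed to 2 thick dying units and 1 normal unit, 29 genes were lower and 1 was higher, and all 29 had also been lower before. MSTRG.29750 was measured at 0, 0.08 and 0.02 TPM in the thick dying and at 7.29, 8.16 and 8.25 TPM in the normal libraries (−7.41 ± 1.14, edgeR adjusted p = 1.50e-07). MSTRG.11107 had no count in the thick dying libraries and 1.81, 1.63 and 1.35 TPM in the normal ones, at least 17.7-fold lower (edgeR adjusted p = 1.37e-05). MSTRG.10906 stood at 200.1, 189.9 and 223 TPM against 3601, 3809 and 3703 TPM, a difference of −3.89. PIN2 stood at 10.1 against 51.0 TPM and GST at 80.0 against 416.4 TPM, and their part was not tested. The 4 genes that rose were MSTRG.28328, MSTRG.34162, MSTRG.30407 and MSTRG.34046. MSTRG.28328 stood at 30.4, 32.9 and 36.2 TPM in the thick dying libraries and had no count in the normal ones, at least 293-fold higher (edgeR adjusted p = 3.79e-06, and 0.0958 after summing near-identical libraries). MSTRG.34162 rose from 1.10, 0.67 and 0 TPM to 44.3, 45.6 and 34.9 TPM (6.47 ± 1.02, edgeR adjusted p = 3.04e-07), although its normal libraries held 2, 1 and 0 counts.

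Thick dying lateral roots of transplanted medium seedlings (KB_sr_TT_krh) had normal lateral roots only from long transplanted seedlings (KB_dl_NN_krh), so that length changed as well. Of the 99 genes, 81 were lower (31.1% of all genes) and 3 higher (23.4%), the median difference was −2.42 against −0.08 for all genes, and 82 genes did not overlap (24.9%). Only 17 were lower, and none higher, after summing near-identical libraries to 1 thick dying and 2 normal units, with 1 gene higher at an unadjusted p under 0.05. Against medium normal lateral roots from containers and rhizotrons, which differ in cultivation instead of length, 89 were lower (32.6% of all genes) and 1 higher (29.3%). MSTRG.30246 was measured at 4.79, 4.28 and 4.34 TPM in the thick dying and at 89.9, 98.1 and 68.7 TPM in the normal libraries (−4.39 ± 0.32, edgeR adjusted p = 3.71e-18), although it was far more abundant in taproots. PIN2 stood at 3.01 TPM in these thick dying and 11.04 TPM in the normal lateral roots, and GST at 11.8 and 35.2 TPM. The part of either was not tested. MSTRG.3248 stood at 0, 0 and 0.04 TPM against 4.41, 4.23 and 1.5 TPM (−7.48 ± 1.17, edgeR adjusted p = 1.88e-07), a difference resting on a single count in the thick dying libraries, with an adjusted p of 0.0607 after summing near-identical libraries. MSTRG.31019 stood at 0.12, 0.06 and 0 TPM against 3.17, 3.00 and 23.1 TPM (−7.37 ± 1.11, edgeR adjusted p = 9.34e-08). The genes that rose were MSTRG.34046, MSTRG.19648 and MSTRG.7816. MSTRG.34046 was measured at 24.4, 25.6 and 27.3 TPM in the thick dying and at 5.16, 4.56 and 3.51 TPM in the normal libraries (2.52 ± 0.44, edgeR adjusted p = 2.04e-06). MSTRG.19648 was measured at 11.4, 9.19 and 12.3 TPM against 2.83, 3.35 and 5.68 TPM (1.35 ± 0.36, edgeR adjusted p = 0.00132), and against the medium lateral roots its difference was 0.14 with an adjusted p of 0.705. After summing near-identical libraries, the adjusted p was 0.101 for MSTRG.34046 and 0.270 for MSTRG.19648.

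The only thick and still active roots of Dataset 2 were elongation zones of medium transplanted seedlings (SW_sr_TN_krh), which were set against normal elongation zones of long transplanted seedlings (SW_dl_NN_krh). Here the falls were smaller, and 32 of the 99 genes were lower (5.33% of all genes) and none was higher (3.68%). The median difference was −0.67, against −0.01 for all genes, and only 16 genes did not overlap (7.42%). At an unadjusted p under 0.05, 45 genes were lower and 2 higher, and DESeq2 called 35 lower and 1 higher. The thick libraries were unequal, with medians of the 100 genes of 4.10, 1.87 and 1.86 TPM against 7.72, 4.39 and 3.85 TPM in the normal libraries. For MSTRG.10906 the first thick library held 2865 TPM and the other two 391 and 382 TPM, against 2169, 1416 and 892 TPM in normal libraries, and the groups overlapped (−0.23, edgeR adjusted p = 0.842). Without the first library of every group the count rose to 57, without the second it was 11 and without the third it was 17. No gene passed when near-identical libraries were summed (19 lower and none higher at an unadjusted p under 0.05) or when only these 2 groups entered the fit (13 lower and none higher at that level). Against medium normal elongation zones from containers and rhizotrons, 25 genes were lower (14.0%) and 7 higher (16.8%). The genes with the largest falls were MSTRG.24283, at 0.19, 0 and 0 TPM against 4.02, 1.11 and 1.37 TPM (−4.89 ± 0.75, edgeR adjusted p = 1.04e-05), and MSTRG.24918, at 0.21, 0.03 and 0.06 TPM against 8.61, 0.95 and 0.03 TPM (−4.85 ± 0.78, edgeR adjusted p = 2.22e-05). Both were lost on summing near-identical libraries, with an adjusted p of 0.189 and 0.278, and MSTRG.24918 overlapped between the groups. PIN2 stood at 0.23 TPM in the thick and 1.94 TPM in the normal elongation zones, whereas GST stood at 9.99 and 5.17 TPM. The part of either was not tested.

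Between thick elongation zones of the same length and cultivation, dying (SW_sr_TT_krh) could be set against active (SW_sr_TN_krh). Of the 99 genes 45 were lower in the dying roots (16.5% of all genes) and 16 higher (17.1%), and the median difference was −1.08 against 0.02 for all genes. The split changed without the first libraries. When the first library of every group was left out, 26 genes were lower and 25 higher, and the median was −0.04. Summing near-identical libraries left 0 lower and 3 higher, with 32 lower and 11 higher at an unadjusted p under 0.05, and a fit of these 2 groups alone gave 13 lower and 12 higher. MSTRG.29750 stood at 0.02, 0 and 0 TPM in the dying and at 3.97, 0.11 and 0.21 TPM in the active libraries (−7.28 ± 1.66, edgeR adjusted p = 4.51e-04, and 0.0881 without the first libraries), a difference resting on a single count in the dying libraries. MSTRG.28328 stood at 9.69, 10.4 and 10.3 TPM in the dying and at 0.08, 0 and 0 TPM in the active libraries, which held 2 counts in all (8.25 ± 1.90, edgeR adjusted p = 6.95e-04). Of the 16 genes higher in the dying libraries, 12 were lower in normal elongation zones than in normal meristems. The same held for 53 of the 99 genes and for 31.2% of all genes tested. How many of all genes had both calls was not counted. PIN2 stood at 8.93 TPM in the dying and 0.23 TPM in the active elongation zones, and GST at 48.2 and 9.99 TPM, and their part in these differences was not tested.

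**Figure D4:**
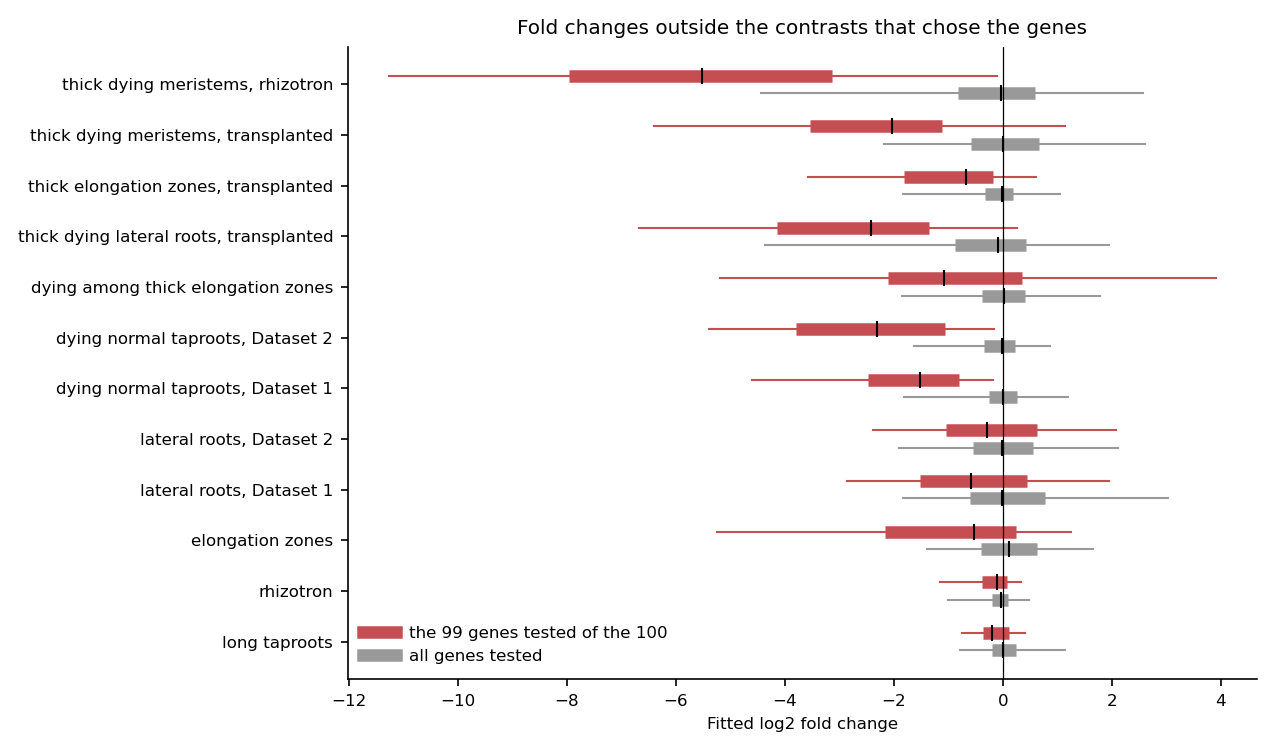
Fitted log2 differences of the 99 tested genes and of all genes tested in 12 comparisons; the point is the median, the thick bar spans the quartiles and the thin line the 5th to the 95th percentile. The genes lie lowest in thick dying rhizotron meristems (median −5.53), and their medians are closest to those of all genes in the comparisons of cultivation and length.

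The comparisons of thick dying roots used separate controls, so their calls can be counted together. In both comparisons of thick dying meristems 75 genes were lower (15.4% of all genes), in all 3 comparisons of thick dying roots 66 were lower (6.74%), and with the thick active elongation zones 27 were lower in all 4 (0.852%). After summing near-identical libraries these numbers were 29 (2.69%), 5 (0.303%) and 0. The 5 genes lower in none of these 4 comparisons include MSTRG.33353, which was not tested.

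The fall in thick dying meristems differed between transplanted and rhizotron seedlings. Transplanted seedlings had also grown since the year before, so that age and cultivation cannot be told apart. The 3 libraries of K_sr_TT_rh and of K_sr_NN_krh each summed to 1 unit. The difference between transplanted and rhizotron meristems, tested as an interaction, was positive for 55 of the 99 genes (21.7% of all genes), which means a smaller fall or a rise in transplanted seedlings, and negative for 2 (16.7%). The median of this difference was 2.83, or 2.20 with 16 genes at their bound, against 0.08 for all genes. Summing near-identical libraries left 5 positive and none negative, with 41 positive and 1 negative at an unadjusted p under 0.05, and DESeq2 called 68 positive and 2 negative. The largest interaction was that of MSTRG.30407, at 22.4, 22.9 and 20.5 TPM in transplanted thick dying against 0.64, 0.79 and 0.52 TPM in transplanted normal libraries. In rhizotrons the same gene stood at 0.04, 0.03 and 0.07 TPM in thick dying libraries, or 1, 1 and 2 counts, against 2.93, 2.58 and 2.79 TPM in normal libraries. The gene thus stood higher in thick dying meristems of transplanted and lower in those of rhizotron seedlings, with an interaction of 11.08 ± 1.32 (log2, edgeR adjusted p = 5.79e-10). MSTRG.35285 differed in the opposite way, at 0.31, 0.88 and 0.76 TPM against 2.56, 3.53 and 2.24 TPM in transplanted and at 3.29, 3.83 and 3.47 TPM against 1.99, 1.63 and 2.16 TPM in rhizotron meristems. Its libraries did not overlap in either cultivation, and its interaction was −2.76 ± 0.75 (edgeR adjusted p = 0.00232, and 0.273 after summing near-identical libraries), while its rise in rhizotron meristems alone did not pass (0.97, edgeR adjusted p = 0.0868).

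**Figure D5:**
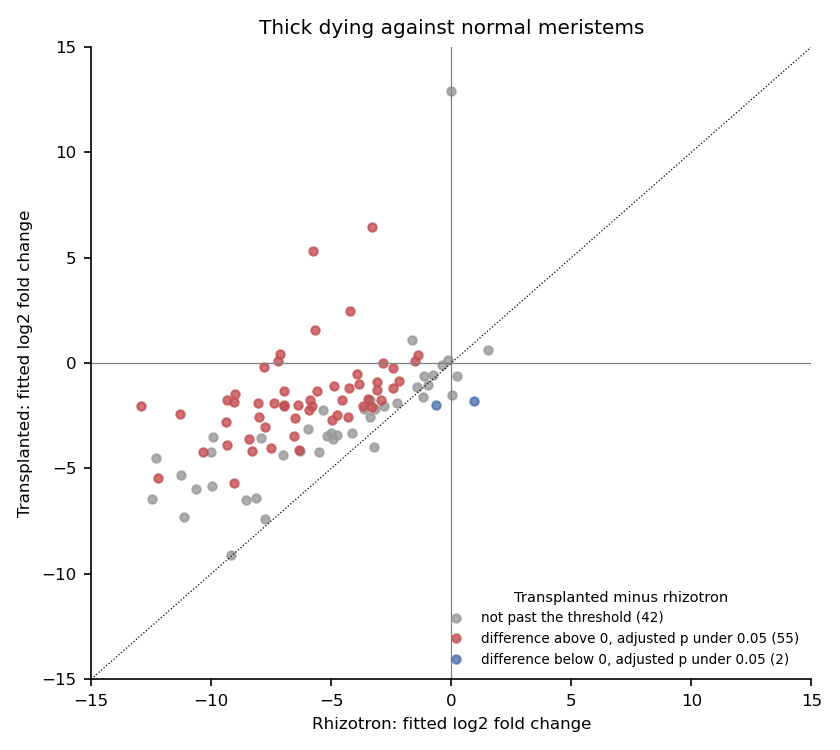
Fitted log2 difference between thick dying and normal meristems for each of the 99 genes, in rhizotrons (horizontal) and in transplanted seedlings (vertical), coloured by the call of the interaction. The 55 genes with a positive interaction lie above the diagonal, 2 lie below it, and 42 were not called.

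The genes were also low in most groups of dying taproots that were not thick. In Dataset 2, 4 pairs of dying and normal taproots were available, 1 of meristems (K_dl_kon) and 3 of elongation zones (SW_dl_kon, SW_sr_rh and SW_dl_krh). Over their mean, 87 of the 99 genes were lower (25.4% of all genes) and none was higher (21.9%), also at an unadjusted p under 0.05 and by DESeq2. The median was −2.31, or −2.13 with 18 genes at their bound, against −0.01 for all genes, and 70 genes were lower in each of the 4 pairs. The share of all genes lower in every pair was not counted, here or in the comparisons over several pairs below. Summing near-identical libraries left 58 lower and none higher. With the pair K_dl_krh, whose labels conflict, 88 were lower (28.1%) and none higher (25.1%). MSTRG.10906 stood at 26.9, 24.6 and 24.5 TPM in dying and at 1760.1, 1574 and 1560.1 TPM in normal meristems of K_dl_kon. In the elongation zones of SW_sr_rh it stood at 1.01, 1.41 and 0.86 TPM against 385, 370.1 and 375 TPM, the lowest level of this gene in any group. MSTRG.424, the gene with the largest fall, was measured at 0, 0 and 0 TPM in dying against 2.98, 2.61 and 2.76 TPM in normal libraries of SW_sr_rh, and at 1.84, 1.99 and 1.89 TPM against 18.6, 18.1 and 18.2 TPM in SW_dl_kon. Dying and normal libraries of MSTRG.424 did not overlap in these pairs, and over the 4 pairs the gene was at least 29.1-fold lower with the group at 0 set to 3 counts per library (edgeR adjusted p = 3.89e-15). In total, 82 genes were lower both here and in thick dying rhizotron meristems, 2 comparisons with separate controls (16.5% of all genes), and 56 after summing near-identical libraries (3.15%). PIN2 stood at 6.93 TPM in dying against 32.9 TPM in normal meristems of K_dl_kon and at 0.017 against 0.313 TPM in SW_sr_rh, whereas it stood at 2.59 against 1.38 TPM in SW_dl_kon and at 2.97 against 1.94 TPM in SW_dl_krh. GST stood at 49.6 against 376.5 TPM in K_dl_kon, but at 98.6 against 39.9 TPM in SW_sr_rh. It stood at 21.2 against 21.3 TPM in SW_dl_kon and at 5.70 against 5.17 TPM in SW_dl_krh. The part of PIN2 or GST in these differences was not tested.

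In Dataset 1, 2 such pairs were tested, long container (2K_dl_kon) and medium rhizotron meristems (2K_sr_rh), neither of them used by the rule. Over both pairs 70 of the 99 genes were lower (8.15% of all 27838 genes tested) and none was higher (6.31%), also at an unadjusted p under 0.05 and by DESeq2. The median was −1.51, or −1.36 with 8 genes at their bound, against 0.01 for all genes, and 67 genes were lower in both pairs. With only the groups of these pairs in the fit 39 were lower and none higher. The dying container group was uneven, with medians of the 100 genes of 5.33, 16.7 and 16.2 TPM, of which the second and the third belong to the libraries near-identical to normal rhizotron meristems, against 19.1, 15.9 and 16.4 TPM in 2K_dl_NN_kon. Without this pair 88 genes were lower (13.4%) and none higher (8.66%), with a median of −3.22. The medium rhizotron meristems alone had medians of 0.93, 0.82 and 0.89 TPM in dying against 9.14, 8.70 and 11.9 TPM in normal libraries. With the pair 1K_dl_kon, whose labels conflict, 88 were lower (16.7%) and 1 higher (14.9%). MSTRG.18185 had no count in the dying libraries of 2K_sr_rh and stood at 1.28, 1.06 and 2.45 TPM in the normal ones, and in 2K_dl_kon it stood at 0.67, 2.70 and 2.09 TPM against 12.7, 5.17 and 5.06 TPM. It did not overlap in either pair and was at least 7.81-fold lower over both (edgeR adjusted p = 1.32e-11). PIN2 stood at 12.6 against 37.9 TPM in 2K_sr_rh and at 49.7 against 41.3 TPM in 2K_dl_kon. GST stood at 77.5 against 345.8 TPM and at 384.8 against 467.4 TPM in these pairs, and the part of either was not tested. In dying taproots of both datasets 66 genes were lower (4.69% of all genes), or 79 without the long container pair (7.04%), and 41 and 46 after summing near-identical libraries. In these and in all 3 comparisons of thick dying roots 55 genes were lower (2.0%), or 64 without the long container pair (2.79%), and 2 with or without it after summing.

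Among normal roots, the genes were divided between root parts. Lateral roots were set against taproot meristems in 5 pairs of Dataset 2, where 45 of the 99 genes were lower (37.2% of all genes) and 27 higher (35.5%), and in 3 pairs of Dataset 1 outside the rule, where 48 were lower (32.5%) and 24 higher (32.1%). Without the Dataset 1 pair that contains 2K_dl_NN_rh, 39 were lower (29.5%) and 25 higher (28.9%). In both datasets 40 genes were lower and 22 were higher, and 1 gene was called in opposite directions. The share of all genes called alike in both datasets was not counted, so no trait of these genes is read from this agreement. MSTRG.6534 had the largest fall in lateral roots of both datasets, with 0.03, 0.14 and 0.13 TPM in lateral roots and 65.4, 59.0 and 60.4 TPM in meristems of sr_NN_rh in Dataset 2 (mean difference −5.40 ± 0.20 over the 5 pairs, edgeR adjusted p = 1.23e-34). In Dataset 1 its difference was −5.97 ± 0.51 (edgeR adjusted p = 3.00e-15), and it was lower in all 3 pairs. MSTRG.2378 had the largest rise in Dataset 2, with 125, 120.4 and 117.9 TPM in lateral roots and 23.0, 24.4 and 22.4 TPM in meristems of sr_NN_rh (2.89 ± 0.17, edgeR adjusted p = 6.14e-25). MSTRG.24389 had the largest rise in Dataset 1 (3.10 ± 0.24, edgeR adjusted p = 8.27e-17), from 7.26, 6.64 and 9.37 TPM in meristems to 31.6, 41.0 and 34.1 TPM in lateral roots of 2K_dl_NN_kon and 2KB_dl_NN_kon. In the 45 groups outside the rule, 55 genes were highest in meristems (42.8% of all candidates), 34 in lateral roots (43.6%) and 11 in elongation zones (13.5%).

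Elongation zones were set against meristems in 5 pairs of Dataset 2. There 53 of the 99 genes were lower in elongation zones (31.2% of all genes) and 17 were higher (38.4%), with a median of −0.53 against 0.11 for all genes, and 35 genes were lower in all 5 pairs. MSTRG.6534 was almost confined to meristems among taproot zones, with 0.218 ± 0.208 TPM in elongation zones and 58.5 ± 17.3 TPM in meristems (mean ± SD, n = 15 libraries each, difference −8.57 ± 0.24, edgeR adjusted p = 4.48e-40). MSTRG.2378 was higher in elongation zones, at 61.6, 70.2 and 61.4 TPM against 23.0, 24.4 and 22.4 TPM in sr_NN_rh (2.45 ± 0.16 over the 5 pairs, edgeR adjusted p = 1.20e-21). Both genes thus kept their direction from lateral roots, though against the same meristem libraries.

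The comparisons of cultivation and length used normal roots alone. Rhizotron and container roots were compared over 7 pairs of normal groups of Dataset 2, with 22 genes lower (17.5% of all genes) and 7 higher (11.5%) in rhizotrons and a median of −0.11 against −0.03. The count of both directions was 59 without the first libraries and 9 and 12 without the second and the third, and 1 after summing near-identical libraries. MSTRG.29298 had the largest rise (0.88 ± 0.21, edgeR adjusted p = 7.39e-04), with 25.1, 24.4 and 27.2 TPM in rhizotron and 5.38, 3.29 and 4.27 TPM in container libraries of K_dl_NN. MSTRG.28328 had the largest fitted fall (−3.47 ± 0.71, edgeR adjusted p = 1.91e-04), but its mean level was 23.0 TPM in both cultivations and it was lower in 4 of the 7 pairs. Long and short taproot meristems were compared over 3 pairs, with 4 genes lower in long taproots (12.2% of all genes) and none higher (13.6%), and 19 lower and 5 higher at an unadjusted p under 0.05, and DESeq2 called 5 lower and none higher. MSTRG.34046 had the largest fall (−1.42 ± 0.30, edgeR adjusted p = 2.16e-04), with 0.08, 0.19 and 0.28 TPM in long and 1.06, 1.77 and 3.86 TPM in short taproots of rhizotrons, and was lower in 2 of the 3 pairs. The count was 30 without the first libraries, 2 without the second or the third and none after summing near-identical libraries (1 lower at an unadjusted p under 0.05).

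A few of the 100 genes did not behave like the rest, and they were singled out after their values had been seen. MSTRG.28328, the gene with the strongest score, was near 0 or high in libraries of the same group. It stood at 0, 39.4 and 35.3 TPM in 2K_sr_NN_kon, at 0.06, 0.06 and 18.1 TPM in 2K_sr_TN_kon, and at 43.2, 0 and 0 TPM in 2KB_sr_NN_rh, and its thick and normal libraries failed to overlap in only 2 of the 5 pairs. Over the 165 libraries it was under 1 TPM in 88, where it reached at most 0.13 TPM, and at 3.47 to 113 TPM in the other 77, with libraries of both kinds in 14 groups. MSTRG.34162 and MSTRG.30407 followed it. In the 88 libraries with little MSTRG.28328, MSTRG.34162 had a median of 0.51 TPM and MSTRG.30407 of 1.23 TPM, and in the other 77 they had medians of 19.0 and 11.1 TPM. On the log2(TPM + 0.5) scale over the 165 libraries, which include near-identical ones, MSTRG.28328 correlated at 0.93 with MSTRG.34162 and at 0.88 with MSTRG.30407, and MSTRG.34162 and MSTRG.30407 correlated at 0.92. The highest group of MSTRG.28328 was 1K_dl_NT_kon, dying roots, at 88.0, 92.4 and 90.9 TPM.

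The remaining exceptions were low genes. MSTRG.33353 failed the filter on low counts, and its levels were scattered, for example 2.12, 9.02 and 0 TPM in 3K_dl_NN_kon and 0, 0 and 2.14 TPM in 3K_dl_TN_kon. MSTRG.32464 was lower in every pair of the rule, with 1.30, 9.50 and 10.1 TPM in normal and 0.13, 0.22 and 0.18 TPM in thick lateral roots of 2KB_sr_kon, but in Dataset 2 it was lower neither in the comparisons of thick dying roots nor in dying taproots. In dying taproots of Dataset 1, a test that includes 2K_dl_NT_kon, it was lower (−3.91 ± 0.89, edgeR adjusted p = 0.00143). MSTRG.33353, MSTRG.28328, MSTRG.34162 and MSTRG.32464 were the 4 genes of the list lower in none of these comparisons of Dataset 2.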

How the data were processed

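The authors trimmed reads, removed ribosomal reads with Bowtie 2, mapped with STAR to the *Q. robur* genome and built transcripts with StringTie. RSEM, run by the authors with strand observed, gave the deposited expected counts, which carry no normalization. The deposited TPM values come from the same estimates. Groups were taken from the sample titles.

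The genes were chosen on TPM (pseudocount 0.5, minimum mean 2 TPM). The members and the comparisons were chosen with earlier results of these data known. Expected counts were rounded and tested with edgeR 4.0.16 in R 4.3.3 (quasi-likelihood test, filterByExpr with a minimum count of 10, TMM), in 1 fit per dataset over all groups, with Benjamini-Hochberg adjustment over all genes tested and a threshold of 0.05. SE is the fold change divided by the root of F. A group at 0 was bounded at 3 counts per library, which covers counting error only. Tables and figures were made with Python 3.11.15, numpy 2.4.6, pandas 2.3.3 and matplotlib 3.10.9. Simulated data were used to test the fits of thick dying rhizotron meristems and of dying normal taproots of Dataset 2, with only the compared groups. The simulated libraries were independent and of equal dispersion. Near-identical libraries, groups of 1 unit, the interaction and the fit over all groups were therefore not covered.

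Named genes were the 6 with the strongest score, the 6 most abundant, the 2 on each side of the threshold, the 2 largest falls and rises called in each comparison of thick groups of Dataset 2, the largest fall and rise in each other comparison, and genes named by the study. Alternatives were DESeq2 1.42.0, no TMM factors, no filter, only the compared groups, summed near-identical libraries, a replicate block, each replicate left out, and, for the rule, other pseudocounts, minima, scales and medians. The exchanged reference groups and left-out pairs were added after seeing the data. Other RNA types were not analysed here.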

Additional observations from a re-analysis of the deposited data

Results flagged for a closer look

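The difference between thick dying and normal meristems differed between transplanted and rhizotron seedlings for 57 of the 99 genes, by the interaction term of edgeR's quasi-likelihood test at an adjusted p under 0.05 (5 genes after summing near-identical libraries, where the thick dying rhizotron and the normal transplanted meristems were 1 unit each). Before summing, the interaction was positive for 55 of these genes (21.7% of all genes tested) and negative for 2 (16.7%). The share of all genes called after summing is not given. The genes with the largest interaction in each direction were MSTRG.30407, at 11.08 on the log2 scale, and MSTRG.35285, at −2.76, as transplanted minus rhizotron meristems. Both groups of thick dying roots were also dying, so that thickness and dying cannot be told apart in this difference, and nor can age and cultivation, since transplanted seedlings were older.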

How the results depend on the processing

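For the choice of genes, 54 of the 100 would have been chosen again with CPM and TMM factors, and 63 to 80 with one replicate left out, and MSTRG.21683 came to 0.007 on the TMM scale. In the tests, summing near-identical libraries moved the count of called genes to 30 in thick dying transplanted meristems, 0 in thick active elongation zones, 17 in thick dying lateral roots, 3 for dying among thick elongation zones, 1 for cultivation, 0 for length and 5 for the interaction. With only the compared groups in the fit the counts were 0 in thick active elongation zones, 25 for dying among thick elongation zones, 17 for length and 39 in dying taproots of Dataset 1. Leaving out each replicate in turn gave 11 to 57 in thick active elongation zones, 9 to 59 for cultivation and 2 to 30 for length. Without TMM factors 9 genes were called for length (2 lower, 7 higher), and the share of lower calls over all genes moved from 47.3% to 23.1% for length and from 56.4% to 69.1% in dying taproots of Dataset 1. The causes of these moves were not tested. DESeq2 and dropping the filter left every count within 1.5 times of the first.

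Replicate numbers showed no general pairing of the libraries. The median correlation of same-numbered deviations was 0.003 in Dataset 1 (range −0.314 to 0.384) and 0.0 in Dataset 2 (range −0.281 to 0.56). A median cannot exclude pairing between some groups. With replicate number as a block the calls numbered 89, 82, 32, 84 and 61 in the comparisons of thick roots and 57 for the interaction, as without it. Groups of 3 libraries, many near-identical, limit what these tests can separate.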
